A study of Mus musculus with 7 samples.

Results

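The interferons that open type I and type II interferon signalling, and the receptor chains that receive them, were followed in the prostate of Nkx3.1-/- mice given vehicle or N-acetylcysteine (NAC), an antioxidant and glutathione precursor. The set was fixed by name as 3 ligands, Ifnab, Ifnb1 and Ifng, and 4 receptor chains, Ifnar1, Ifnar2, Ifngr1 and Ifngr2. All 7 were found among the 18938 genes measured. Ifnab, and through it the family, was selected on its NAC minus vehicle difference on these same arrays. The differences of the 7 genes are therefore a description and carry no test.

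Every mouse was homozygous null for Nkx3.1, on a recombinant inbred B6/129 background, and 16 weeks old, so that no array holds wild-type tissue. The 3 vehicle arrays (replicates 1, 2 and 4) come from mice that drank plain water, and the 4 NAC arrays (replicates 1 to 4) from mice that drank 5 mM NAC over 13 weeks from weaning. One mouse gave the RNA of each array, Affymetrix Mouse Gene 1.0 ST; the protocol names the anterior lobe, whereas the tissue label names whole prostate. Littermates were divided between treatment cages, so that cage and treatment cannot be told apart. All mice had an injection of BrdU, a label of dividing cells, before they were killed. With so few arrays the precision of each value is low.

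Interferons are secreted alarm signals. The type I interferons, a large alpha family together with beta and a few relatives, are made by many cells that sense viral or displaced nucleic acid, and all of them bind 1 receptor built of Ifnar1 and Ifnar2. Type II interferon, the product of Ifng, comes mainly from T cells and natural killer cells and binds a receptor of Ifngr1 and Ifngr2. Both receptors work through Janus kinases and STAT proteins, which switch on antiviral and antigen presentation genes.

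The promoters of the ligands and of the receptors are built differently, and the sequences below show this for 3 neighbouring alpha genes, the other ligands and 1 receptor chain. They come from RefSeq windows around the annotated start on GRCm38.p6 and are written 5′ to 3′ on the strand of the gene. For the interferons, the 100 bases that end with the TATA element are given, with capitals on that element (TATAAA or TATTTAA) and on each match, on either strand, to AANNGAAA, the core bound by interferon regulatory factors. For the receptor chain Ifnar1, the 100 bases before the start are given, with capitals on the GC box GGGCGG.
Ifnab (chr4:88691321-88691420, - strand): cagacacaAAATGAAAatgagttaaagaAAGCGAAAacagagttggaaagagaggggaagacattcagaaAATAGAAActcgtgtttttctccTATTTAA
Ifna2 (chr4:88683871-88683970, - strand): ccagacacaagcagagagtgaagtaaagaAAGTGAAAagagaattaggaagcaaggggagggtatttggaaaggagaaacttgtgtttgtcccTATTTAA
Ifna16 (chr4:88676942-88677041, - strand): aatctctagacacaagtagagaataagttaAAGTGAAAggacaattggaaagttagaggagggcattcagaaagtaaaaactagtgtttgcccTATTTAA
Ifnb1 (chr4:88522871-88522970, - strand): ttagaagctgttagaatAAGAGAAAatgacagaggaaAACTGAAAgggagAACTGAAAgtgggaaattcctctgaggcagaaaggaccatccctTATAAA
Ifng (chr10:118440922-118441021, + strand): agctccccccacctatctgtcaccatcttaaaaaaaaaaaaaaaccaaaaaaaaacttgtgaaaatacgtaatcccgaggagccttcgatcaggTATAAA
Ifnar1 (chr16:91485115-91485214, + strand): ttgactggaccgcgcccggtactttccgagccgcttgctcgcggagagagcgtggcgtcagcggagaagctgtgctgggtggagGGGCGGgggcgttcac

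Ifnab, Ifna2 and Ifna16 lie side by side in the interferon cluster of chromosome 4. Over these 100 bases, Ifna2 was 75.2% and Ifna16 71.3% identical to Ifnab, and the 11 alpha genes aligned with it ranged from 64.9% to 79.4%. The core AANNGAAA was found in the windows of all 13 alpha genes that had one, with 2 or more matches in 8 of them, against 23.9% and 5.34% of all 32851 windows. Ifnab and Ifnb1 held 3 matches each and Ifng 1. A TATA element was present in all 13 alpha windows, against 10.4% of all windows. The 4 receptor windows held neither, but each held a GC box, as did 35.7% of all windows. The receptor genes Ifnar2, Ifnar1 and Ifngr2 are neighbours on chromosome 16 together with Il10rb, a chain of the type III interferon receptor. A motif match describes the sequence and says nothing about binding in this tissue.

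Epithelial genes of the prostate were present on all arrays. The secretory genes Pbsn (probasin) and Tgm4 had log2 values from 12.63 to 12.95 and from 13.96 to 14.02, and the transcription factor Hoxb13 from 11.07 to 11.28. NAC replicate 3 stood apart in transcripts of other tissues: lung markers averaged 8.35 on that array and 5.65 to 5.77 on the others, adipocyte markers 7.48 and 5.85 to 6.06, and skeletal muscle markers 7.60 and 6.82 to 6.88. The Nkx3.1 transcript itself is not analysed here. Across all genes, limma called 0 of 18938 (0.0%) at an adjusted p under 0.05, and the lowest adjusted p was 0.827. The same holds for the lists below, and at an unadjusted p under 0.05 limma found 1.89% of genes higher and 2.53% lower with NAC. All values are log2 expression values, and all differences are NAC minus vehicle on that scale.

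Ifnab encodes an interferon alpha. Its level on vehicle replicates 1, 2 and 4 was 5.79, 5.76 and 5.96. On NAC replicates 1 to 4 it was 6.26, 6.14, 6.22 and 6.24. All 4 NAC arrays thus lay above all 3 vehicle arrays, by a gap of 0.178 between the highest vehicle and the lowest NAC array. The vehicle mean was 5.84 ± 0.11 (SD, n = 3) and the NAC mean 6.22 ± 0.05 (SD, n = 4), a difference of 0.38 (standard error 0.06), which is 1.30-fold. Leaving out any 1 array gave differences from 0.34 to 0.44, and 0.38 without NAC replicate 3. Of all genes, 1.29% had every NAC array above every vehicle array and 2.18% every NAC array below, shares that are given as background only, since this contrast chose Ifnab.

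A further 3 probe sets name Ifnab together with 5, 12 and 11 other genes and were left out because they do not stand for a single gene. They were examined after the data had been seen. Their differences were 0.10 (standard error 0.07), 0.06 (standard error 0.06) and -0.04 (standard error 0.07). All 3 were smaller than that of the probe set naming Ifnab alone, 1 had the opposite sign, and in all 3 the groups overlapped. The sequences of the probes were not used here, and how much of the Ifnab value comes from other members of the family was not tested.

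Ifnb1 encodes interferon beta, which cells often make first in a type I response. It was at 4.80, 4.81 and 4.88 on vehicle replicates 1, 2 and 4, and at 4.88, 4.88, 4.91 and 4.88 on NAC replicates 1 to 4. Vehicle replicate 4 and NAC replicates 1, 2 and 4 held the same value, so that the groups met without separating. The difference was 0.06 (standard error 0.03).

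Ifng encodes interferon gamma, the type II ligand. Its values were 5.77, 5.98 and 5.98 with vehicle and 5.98, 5.88, 5.98 and 6.11 with NAC. The groups overlapped, with vehicle replicate 1 lowest and NAC replicate 4 highest, and 4 arrays again shared 1 value. The difference of 0.08 (standard error 0.07) was 0.01 without vehicle replicate 1. Identical values of this kind arise in 7568 genes, for which at least 3 arrays agree exactly, and they limit what small differences can show. Among the 13 markers of T and natural killer cells, the main producers of Ifng, 10 were lower with NAC and 3 higher, with a median of -0.03. Their mean level was 5.88 to 6.03 with vehicle and 5.85 to 5.92 with NAC, highest on vehicle replicate 4, and their part in the Ifng values was not tested. All of these markers except Cd3e were dim, with a mean under 6.59, the cutoff explained below. Cd2 and Ncr1 each held 1 value on 5 arrays. Such low and shared values limit what the small marker differences can show about these cells. In bulk tissue, fewer cells of a type and less RNA per cell cannot be told apart.

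All 3 ligands were dim. Their mean over the 7 arrays was under 6.59, the 40th percentile of all genes, below which genes were left out in an alternative analysis, whereas the 4 receptor chains passed. Signal over background cannot be read from summarized values, so that these levels do not show whether the interferon transcripts were present. The 6 measured markers of plasmacytoid dendritic cells, a strong source of type I interferon, averaged 7.28 to 7.35 with vehicle and 7.25 to 7.34 with NAC. Bst2, Tcf4 and Irf8 were the brightest of them, with vehicle means of 9.15, 9.09 and 8.65, and raised this average. Bst2 and Irf8 also belong to pathway lists described below. Siglech, Ccr9 and Spib were dim. Siglech, a surface marker of these cells, held 1 value on 3 arrays and had a difference of -0.01 (standard error 0.07). Such low and shared values limit what these markers can show about the cells.

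**Figure D1:**
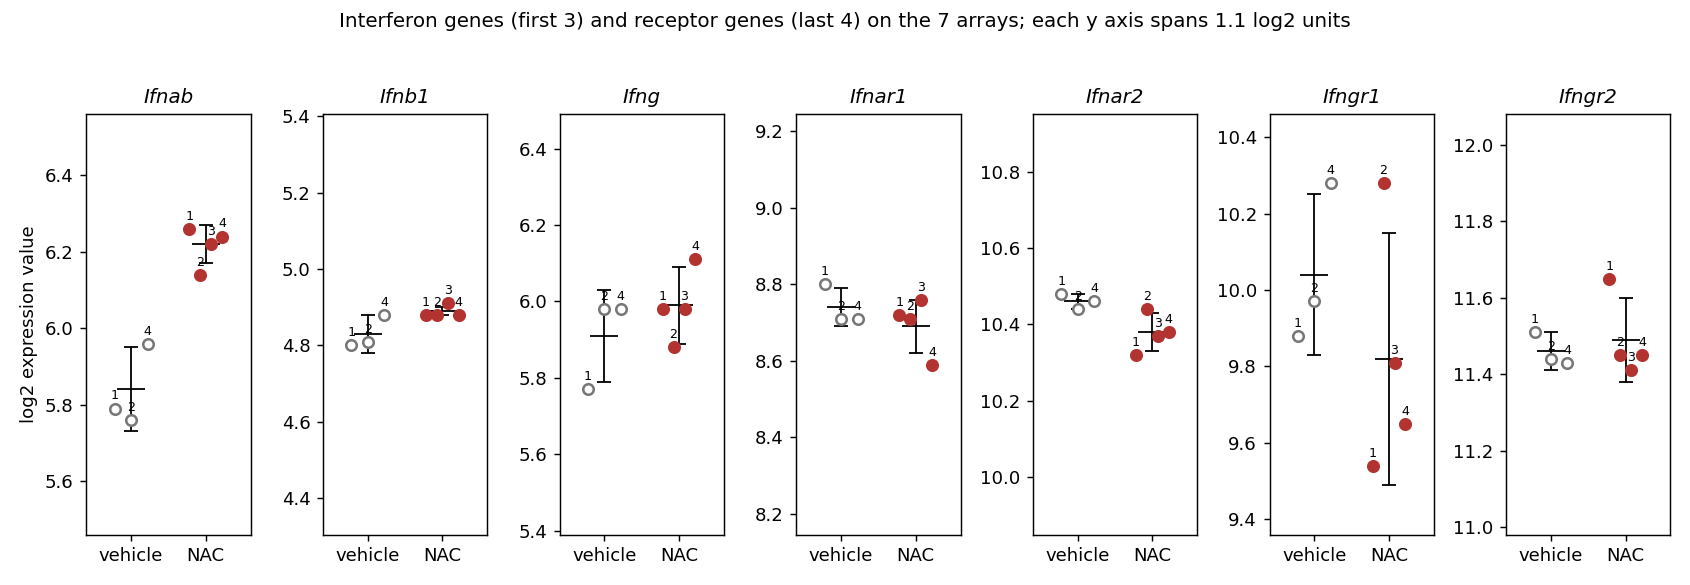
Log2 expression value (y axis, the same span of log2 units in every panel) of the 3 interferon genes and the 4 receptor genes by treatment (x axis), with vehicle arrays open and grey (n = 3), NAC arrays filled and red (n = 4), replicate numbers above the points and bars giving mean ± SD. The 4 NAC arrays lie above the 3 vehicle arrays for Ifnab, while Ifngr1 reaches 10.28 on 1 array of each group.

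The other interferons were examined for the same direction. Of 18 further genes of the alpha, epsilon, kappa, zeta and lambda kinds, 12 were measured by a probe set of their own. The difference was positive for 8 of them and negative for 4 (median 0.07), where the median of all genes was 0.00 and 90% of genes lay between -0.14 and 0.15. All of the 12 except Ifna5, Ifna14 and Ifnl2 were dim, with a mean under 6.59. Ifnk and Ifna9 each held 1 value on 5 arrays, and Ifna4 on 4. Such low and shared values limit what these signs and small differences can show. Ifna16 was nearest to Ifnab. It was at 5.46, 5.76 and 5.62 on vehicle replicates 1, 2 and 4 and at 5.77, 5.79, 6.06 and 6.14 on NAC replicates 1 to 4. The groups did not overlap, but only 0.008 separated them, and the difference of 0.33 (standard error 0.12, limma adjusted p = 0.827) ranged from 0.25 to 0.40 as single arrays were left out.

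Ifna2, which lies between Ifna16 and Ifnab in the cluster, had a difference of -0.15 (standard error 0.19). Its vehicle values of 6.43, 6.08 and 6.62 overlapped with the NAC values of 6.08, 6.32, 5.92 and 6.58. The 9 alpha genes of this list taken alone had 5 higher and 4 lower, with a median of 0.06. Ifne, an interferon of epithelia, had a difference of 0.13 (standard error 0.08), and Ifnk, made mainly by keratinocytes, of 0.10 (standard error 0.07). The alpha genes with a probe set of their own therefore ran in both directions, and limma called 0 of the 12 genes. It found 1 higher at an unadjusted p under 0.05, beside 1.89% of all genes. Whether Ifnab differed from the other alpha genes in its response was not tested.

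**Figure D2:**
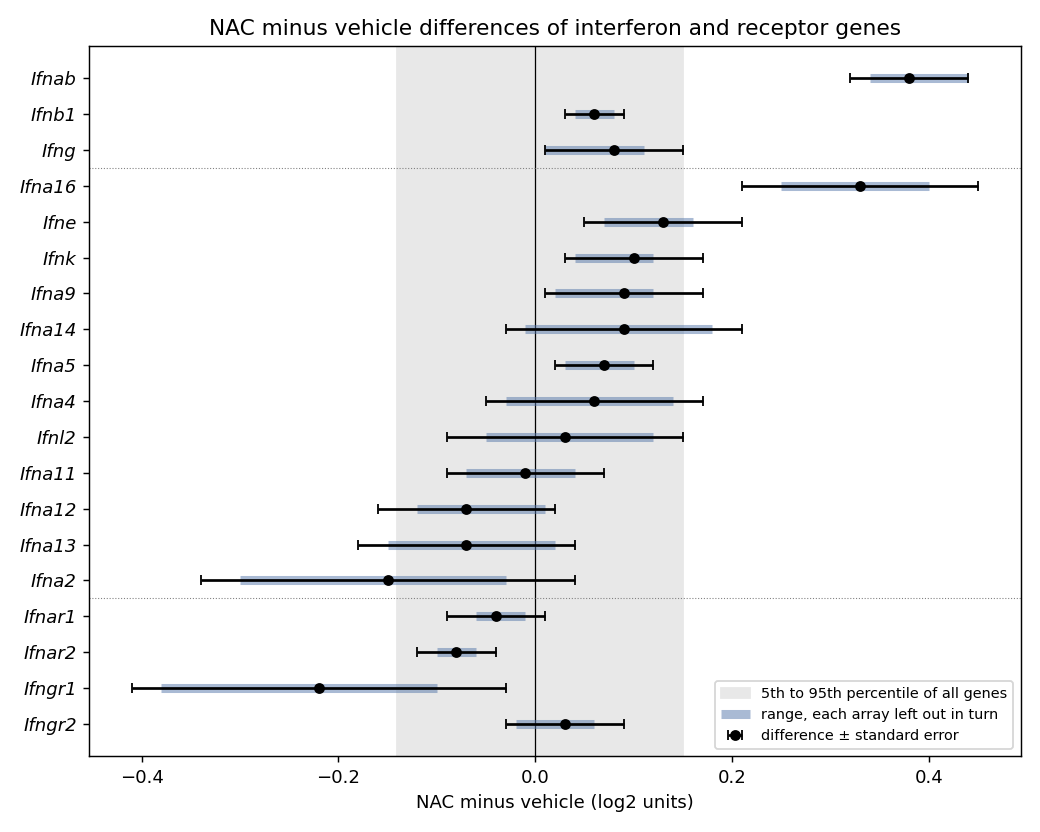
NAC minus vehicle difference in log2 units (x axis) of the 3 ligands, the 12 other interferons and the 4 receptor chains (y axis, separated by dotted lines), with points and black bars giving the difference ± standard error from limma, blue bars the range as each array was left out, and grey the band between the 5th and 95th percentile of all genes. Ifnab at 0.38 and Ifna16 at 0.33 lie to the right of the band, and Ifngr1 at -0.22 and Ifna2 at -0.15 to its left.

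The receptor chains were bright and differed less than Ifnab. Ifnar1, the type I chain that carries the kinase Tyk2, was at 8.80, 8.71 and 8.71 on vehicle replicates 1, 2 and 4. With NAC it was at 8.72, 8.71, 8.76 and 8.59. The groups overlapped, and the difference was -0.04 (standard error 0.05).

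Ifnar2, the type I chain that carries Jak1, was at 10.48, 10.44 and 10.46 with vehicle and at 10.32, 10.44, 10.37 and 10.38 with NAC. Every NAC array was below every vehicle array, but NAC replicate 2 missed vehicle replicate 2 by only 0.001, and the separation was lost when array medians were subtracted. The difference was -0.08 (standard error 0.04), or 0.94-fold, and stayed between -0.10 and -0.06 as single arrays were left out.

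Ifngr1, the chain that binds interferon gamma, varied most. It was at 9.88, 9.97 and 10.28 on vehicle replicates 1, 2 and 4 and at 9.54, 10.28, 9.81 and 9.65 on NAC replicates 1 to 4. NAC replicates 1, 3 and 4 lay below all vehicle arrays, while NAC replicate 2 was as high as the highest vehicle array. The difference of -0.22 (standard error 0.19) was -0.38 without NAC replicate 2 and -0.10 without vehicle replicate 4. Its within-group SD was 0.29, and 2.4% of all genes had a larger one; for Ifnar1, Ifnar2 and Ifngr2 that share was 67.3%, 86.9% and 45.0%.

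Ifngr2, the second chain of that receptor, which carries Jak2, was at 11.51, 11.44 and 11.43 with vehicle and at 11.65, 11.45, 11.41 and 11.45 with NAC. NAC replicate 1 was the highest of the 7 arrays, where Ifngr1 was lowest. The difference was 0.03 (standard error 0.06) and -0.02 without NAC replicate 1. Of the 4 receptor chains, 3 were lower with NAC and 1 higher. All 3 ligands were higher, but this contrast chose Ifnab, and Ifnb1 and Ifng differed by only 0.06 and 0.08. These signs are therefore a description only.

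The genes whose deviations from their own group means ran most like those of Ifngr1 over the 7 arrays were Serinc1, Iqcb1 and Arcn1, a subunit of the coat of transport vesicles, with Pearson's r of 0.993, 0.986 and 0.983. For Ifnab they were Muc3, the histone chaperone Asf1a and the NADPH oxidase Nox4 (0.990, 0.989 and 0.987). For Ifnar2 they were Haus7, Cst10 and Spam1 (0.994, 0.986 and 0.983). For Ifnb1 they were Itgbl1, Kif9 and Ppp1r3b (0.998, 0.998 and 0.992), and for Ifng Frs3, Olfr301 and Lce1a1 (1.0, 0.998 and 0.997), where shared values on several arrays leave few distinct points. For Ifnar1 they were Cep76, Med29 and Slc35a2 (0.999, 0.992 and 0.989), and for Ifngr2 S100pbp, Wdr34 and Zmynd8 (0.992, 0.989 and 0.989). These are the highest of all named genes over only 7 arrays and are given as a description.

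The rest of the pathway was followed through 8 lists with 82 measured genes, 36 of them higher and 46 lower with NAC (median -0.01). Limma called 0 of them. At an unadjusted p under 0.05 limma found 2 higher and 11 lower, beside 1.89% and 2.53% of all genes. Groups did not overlap for 1 higher and 9 lower, beside 1.29% and 2.18% of all genes. Both chains of the type III receptor were measured, Il10rb with 0.16 (standard error 0.09) and Ifnlr1 with 0.02 (standard error 0.12). Of 6 measured genes for the kinases, STATs and Irf9 next to the receptors, 2 were higher and 4 lower. Irf9, the DNA-binding part of the type I transcription complex, had -0.12 (standard error 0.06), and Tyk2 -0.21 (standard error 0.12). Stat2 and Stat3 had -0.04 (standard error 0.04) and 0.10 (standard error 0.16).

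The inhibitors of signalling had 6 genes higher and 3 lower of 9, with a median of 0.00. Usp18 binds Ifnar2 and blocks the type I receptor, and it was the 1 inhibitor whose groups did not overlap. It was at 8.11, 8.39 and 8.35 with vehicle and at 7.79, 7.90, 7.55 and 7.52 with NAC, a difference of -0.59 (standard error 0.11, limma adjusted p = 0.827). Pias1 and Ptpn2, which restrain STAT proteins, had -0.09 (standard error 0.05) and -0.10 (standard error 0.08), and the phosphatase Ptpn11 0.11 (standard error 0.09).

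Upstream of the type I ligands, the list held 17 measured sensors, adaptors and factors, 9 of them above and 8 below 0 in their difference (median 0.01). Of these, 3 that are themselves induced by interferon had every NAC array below every vehicle array, as had 2.18% of all genes. Irf7, the factor that drives the alpha genes, was at 8.25, 8.47 and 8.62 with vehicle and at 8.12, 8.02, 7.78 and 8.18 with NAC, a difference of -0.42 (standard error 0.12). The RNA sensors Dhx58 and Ddx58 had -0.29 (standard error 0.07) and -0.30 (standard error 0.10), and Ifih1, whose groups overlapped, -0.16 (standard error 0.07). Ifnab and Irf7 thus had differences of opposite sign on these arrays.

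Upstream of Ifng, 6 of 10 measured genes were higher and 4 lower (median 0.07). Limma found 1 of them higher at an unadjusted p under 0.05, beside 1.89% of all genes. That gene was Il12a, a subunit of interleukin 12, at 0.12 (standard error 0.05). Tbx21, the T-bet factor of Ifng-producing cells, had 0.10 (standard error 0.05), and the receptor chains Il12rb2 and Il18r1 0.11 (standard error 0.06) and -0.16 (standard error 0.11). Most genes of this list, and all those named here, were dim, with a mean under 6.59. Tbx21, Il12rb2 and Il18r1 each held 1 value on 3 arrays, which limits what these small differences can show.

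Downstream, 13 of 14 measured genes induced by type I interferon were lower with NAC, with a median of -0.24. Their differences ranged from -0.69 to 0.01, and some of the lower ones were close to 0. Ifit1, which binds viral RNA, was at 7.95, 8.61 and 8.44 with vehicle and at 7.71, 7.86, 7.47 and 7.54 with NAC, a difference of -0.69 (standard error 0.17). Oasl2, Rtp4 and Xaf1 had -0.47 (standard error 0.11), -0.42 (standard error 0.12) and -0.25 (standard error 0.06). The groups of Rtp4 met without separating, at 7.40 on vehicle replicate 1 and NAC replicate 2. The mean level of the list was 7.25, 7.47 and 7.54 on vehicle replicates 1, 2 and 4 and 7.14, 7.21, 7.13 and 7.12 on NAC replicates 1 to 4. Every NAC array was below every vehicle array, the reverse of the order of Ifnab. Of 12 markers of macrophages and dendritic cells, which respond to interferon, 9 had a positive difference and 3 a negative one (median 0.10), with mean levels of 6.99 to 7.09 with vehicle and 7.05 to 7.19 with NAC. In 2 of them the groups did not overlap, beside 1.29% of all genes higher and 2.18% lower. The complement gene C1qb had 0.21 (standard error 0.10, a gap of 0.003). Clec9a, a receptor of dendritic cells, had -0.21 (standard error 0.06) and was dim, with a mean under 6.59. The other negative markers were Itgax at -0.20 (standard error 0.08) and Flt3 at -0.06 (standard error 0.06). Both were dim as well, and their groups overlapped. The part of the 12 markers in the levels of the induced genes was not tested. Vehicle replicate 1 was the lowest vehicle array for this list and had the highest Ifnar1 and Ifnar2 values of the 7 arrays.

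Genes induced mainly by interferon gamma had 10 of 12 lower and 2 higher, with a median of -0.05. Irgm1, a GTPase of cell-autonomous defence, was at 8.20, 8.41 and 8.42 with vehicle and at 8.02, 8.17, 7.99 and 7.88 with NAC, a difference of -0.33 (standard error 0.08). The chemokine Cxcl9, the GTPase Iigp1 and the nitric oxide synthase Nos2 had -0.20 (standard error 0.16), -0.12 (standard error 0.08) and 0.14 (standard error 0.08). The mean level of the list overlapped between the groups, from 6.70 to 6.82 with vehicle and from 6.62 to 6.78 with NAC. Of the 14 and 12 genes of these lists, 4 and 1 had groups that did not overlap, all lower with NAC, beside the 2.18% of all genes given above.

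**Figure D3:**
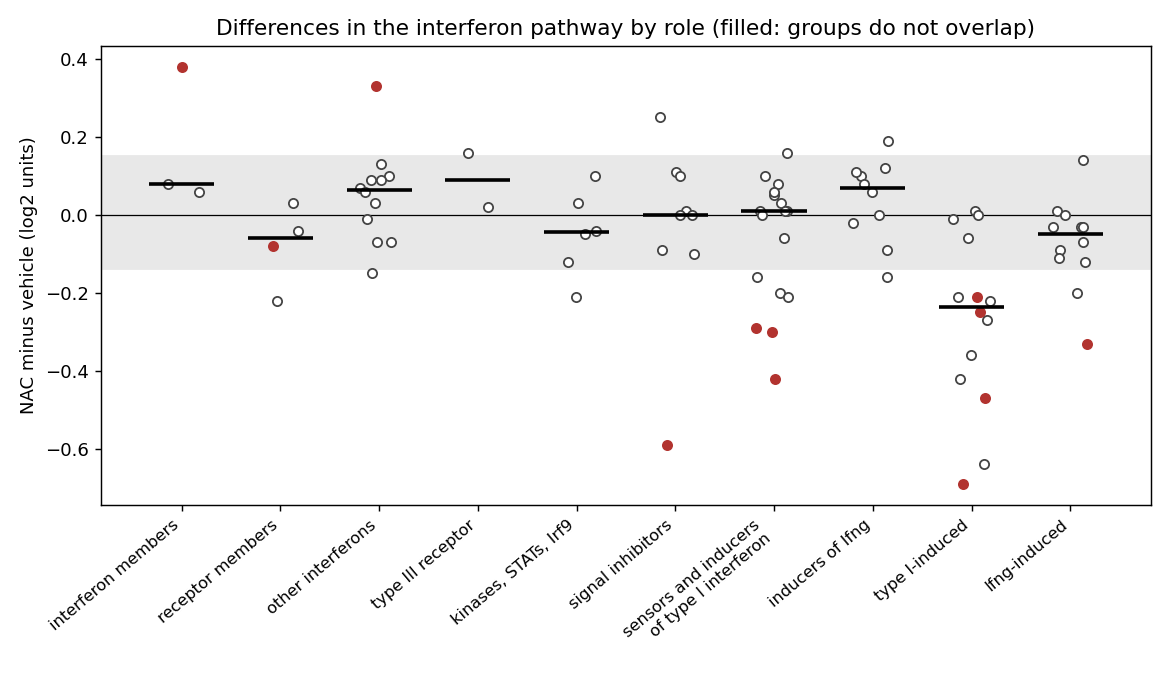
NAC minus vehicle difference in log2 units (y axis) of each measured gene of the interferon pathway, by role (x axis), where filled red points have groups that do not overlap, black lines give the median of a list and the grey band spans the 5th to 95th percentile of all genes. Ifnab is at 0.38 and Ifna16 at 0.33 above the band, while the type I-induced genes have a median of -0.24 and reach -0.69.

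**Figure D4:**
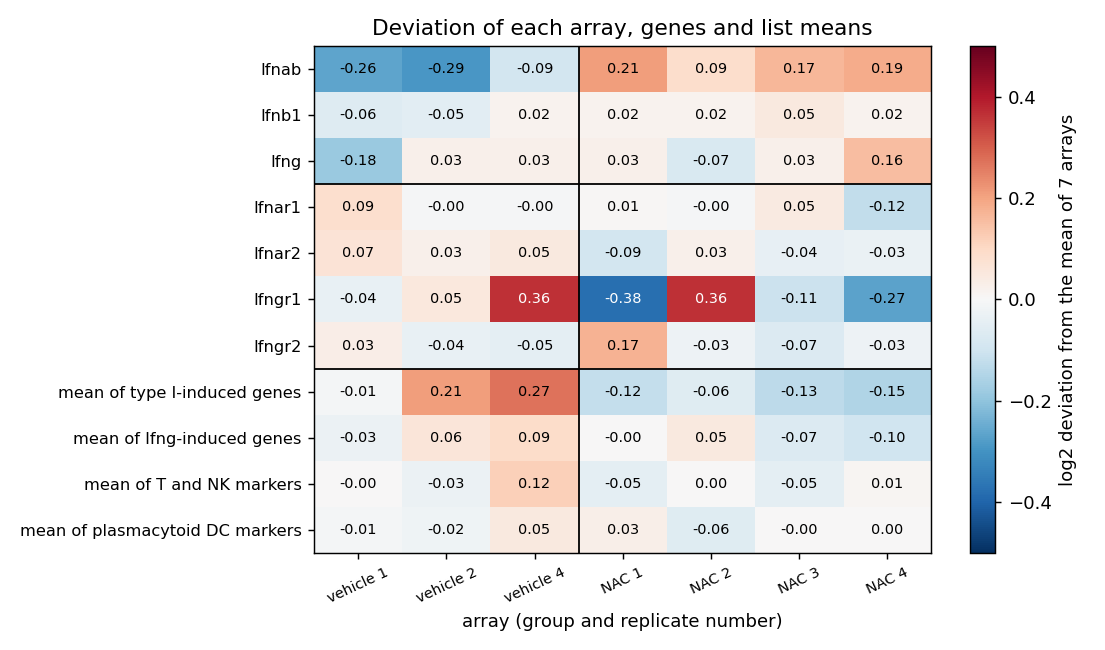
Deviation in log2 units of each array (x axis) from the mean of the 7 arrays, for the 3 ligands, the 4 receptor chains and the mean over 4 gene lists (rows), with red above and blue below that mean. Ifnab is above 0 on all NAC arrays and below 0 on all vehicle arrays, and the mean of type I-induced genes is below 0 on all NAC arrays and at 0.21 and 0.27 on vehicle replicates 2 and 4, with vehicle replicate 1 at -0.01.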

How the data were processed

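The deposited log2 values were used. To make them, the authors corrected the perfect-match probes for background by RMA, quantile normalized them and summarized each probe set by median polish (affy package). RNA came from 4 mice of each group, and 1 vehicle array failed their quality control. Per the labels, the submitters' processing notes also name limma, and the genome build of the probe sets is not given in the sources used here. Groups and replicate numbers come from the sample titles.

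Of 20696 probe sets, 18950 name 1 gene in the array's annotation table, 678 several and 1068 none. Symbols were updated through Entrez identifiers (18922 found in the RefSeq table), and the probe set with the highest mean stood for a gene, which gave 18938 genes; each of the 7 genes described has 1 such probe set. Array medians lay between 7.16 and 7.20. The NAC and vehicle arrays were fitted by limma 3.58.1 under R 4.3.3 (lmFit, eBayes, two-sided, Benjamini-Hochberg over all genes, adjusted p under 0.05, no covariates), which was tested on simulated data. The study states no test of single genes. P-values measure the spread between these mice only.

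The 7 genes and the 8 pathway lists, written from textbook knowledge, were chosen with earlier results of these data known. Genes named are the 7, up to 4 genes per pathway list by the smallest unadjusted p, any other measured interferon, and, for each of the 7, the 3 genes with the highest Pearson's r of deviations from group means (predicted genes and Riken clones passed over). The marker genes named were chosen after their values were seen. Genes of the lists that had no probe set of their own are not analysed here.

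Results were recomputed with each array left out, with a block for the replicate number, without dim genes, with array medians subtracted, after a second quantile normalization, with array weights, with a robust fit and variance trend, and with other choices of probe set (their median, or all tested). Promoter windows were aligned with Biopython 1.88 (global alignment).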

Additional observations from a re-analysis of the deposited data

Results flagged for a closer look

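Of 45 interferon, receptor and pathway genes examined, 5 had 1 NAC array far from the other 3, by Dixon's criterion at the 0.05 level, which sets the gap to the nearest array against the range of the group. Chance singles out a share of about 0.05 of such groups where values are all distinct. For Ifnb1, Ifnk and Ifna9 the other 3 arrays shared 1 value, so that any deviation of the remaining array met the criterion and that share does not hold. NAC replicates 2 and 3 shared 1 value for Ifne, and NAC replicates 3 and 4 for Il12rb2, so that it does not hold for these genes either. Ifnb1 was at 4.91 on NAC replicate 3 and at 4.88 on the other NAC arrays. Ifnk was at 4.2 on NAC replicate 4 and at 3.97 on the others, and Ifna9 at 6.06 on NAC replicate 4 and at 5.76 on the others. Ifne was at 5.89 on NAC replicate 1 and from 5.62 to 5.66 on the others, and Il12rb2 at 5.41 on NAC replicate 1 and from 5.25 to 5.27 on the others. Groups of 3 were not examined.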

How the results depend on the processing

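Ifnab, Ifnb1 and Ifng were removed with the dim genes. The difference of Ifnab moved to 0.10, 0.06 and -0.04 in the 3 probe sets that also name other genes. They were examined after the data had been seen, and 1 of them turned its sign. Those 3 aside, 101 of 102 differences of the 7 genes kept their sign. The exception was Ifngr2, at -0.02 without NAC replicate 1, and Ifnb1 was 0.02 after a second quantile normalization. Part of the 102 could not change. The robust fit with a variance trend does not alter a difference, and neither does leaving out other, dim genes. The other choices of probe set could not alter it either, since each of the 7 genes has 1 probe set. The genes whose groups did not overlap numbered 2, Ifnab and Ifnar2; they numbered 1 after array medians were subtracted and 1 without dim genes, and from 2 to 3 as single arrays were left out, where Ifnb1 joined without vehicle replicate 4 and Ifngr1 without NAC replicate 2. Limma called from 0 to 1 gene in all as single arrays were left out, the 1 gene, without NAC replicate 4, being Crip1 (-1.15, limma adjusted p = 0.033, named after its values were seen), and 0 of the 82 pathway genes under any alternative. With the replicate number as a block (replicates 1, 2 and 4), 0 genes were called. That setting left out NAC replicate 3, and 2 genes still had groups that did not overlap. The count of such genes is read from the array values and could not change with the weights or the variance model. Deviations of same-numbered arrays correlated at 0.270, 0.234 and -0.031 across genes, and 4 of 6 arrays correlated best with their own number. These values do not settle whether same-numbered mice share a litter or a batch. The main fit did not use the numbers, and the block fit above did. Arrays give no counts, and the dim ligands are limited by an unknown signal over background.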
